A study of Arabidopsis thaliana with 12 samples.

Results

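The 97 genes described here had mean levels with YC4-R4 of at most 0.5 times the control level in each of 2 Arabidopsis thaliana genotypes. They were chosen from the measured values. Among 33602 genes in the count table, 18936 averaged at least 1 CPM, a unit that scales a gene's count to its library's total, in both control groups. Of these, 324 met the ratio in Col-0 and 343 met it in rdd. The 108 genes that met it in both included 11 of 12 genes that the selection names as exceptions, and leaving those out gave the 97. The mirrored selection, at least 2-fold higher in both genotypes, held 34 genes.

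The RNA came from whole plants, 2 weeks old and grown in soil, in 4 groups of 3 libraries. The groups were rdd in YC4-R4 soil, rdd in regular soil (control), Col-0 in YC4-R4 soil and Col-0 in control soil. Col-0 is the common wild-type accession of Arabidopsis. The series title concerns active DNA demethylation and beneficial root bacteria, and the study asked how plants with and without this demethylation respond to YC4-R4, which the labels do not describe further. The name rdd is given in this field to the combined mutant of ROS1, DML2 and DML3, enzymes that cut methylated cytosine out of DNA. Neither the mutant alleles nor the number of plants per library was given, and no batch was recorded in the labels used here.

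Several of the 97 genes encode parts of rapid stress signalling. Touch, wounding, cold or microbial molecules raise calcium inside plant cells, calmodulin-like proteins bind it, and transcription factors of the AP2/ERF, WRKY and MYB families are induced early. Germin-like proteins, phloem lectins and receptor-like proteins act at the cell wall or plasma membrane or in defence. In whole plants, fewer cells of a type and less RNA per cell cannot be told apart.

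Library totals ran from 14465710 to 20281801 counts. The libraries were grouped by their labels, and no demethylase transcript separated the genotypes in both soils. ROS1 averaged 76.8 CPM in libraries labelled rdd YC4-R4 and 80.5 CPM in those labelled rdd control, against 70.7 and 77.5 CPM in the Col-0 groups with these soils. With YC4-R4, ROS1 ran from 74.7 to 78.8 CPM in rdd and from 69.4 to 72.7 CPM in Col-0 libraries, without overlap. In control soil its ranges overlapped. DML2 averaged 13.9 and 20.9 CPM in those rdd groups, against 13.3 and 18.8 CPM in the matching Col-0 groups, and its ranges overlapped in each soil. Every statement on rdd below concerns libraries labelled rdd. DML3 met the ratio rule and is among the exceptions. In control soil it ran from 3.46 to 3.69 CPM in rdd and from 4.27 to 5.54 CPM in Col-0 libraries, without overlap. With YC4-R4 the DML3 ranges overlapped. The biological coefficient of variation over all tested genes was 5.84% in rdd YC4-R4, 3.22% in rdd control, 2.57% in Col-0 YC4-R4 and 3.06% in Col-0 control libraries. Summed leaf markers (6 genes) ran from 39403 to 40436 CPM in rdd YC4-R4 and from 37814 to 39551 CPM in rdd control libraries, and from 40348 to 40692 CPM in Col-0 YC4-R4 against 45434 to 47500 CPM in Col-0 control libraries, with none of the 6 at 0. Summed root markers (7 genes, none at 0) stayed between 993 and 1139 CPM over all libraries, but PYK10 alone averaged 949 to 1077 CPM in the groups. Of the 7, 3 were called lower and 1 higher with YC4-R4 in rdd, and 3 lower and 2 higher in Col-0. Over all tested genes, 17.1% were lower and 15.1% higher in rdd, and 16.9% and 12.9% in Col-0. The 5 floral markers, of which 0 to 2 were at 0 in a library, summed to 1.38 to 3.38 CPM. The part of the leaf and root marker differences in the results below was not tested.

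The 97 genes together took 468.9 to 483.1 CPM in rdd YC4-R4 libraries, against 1394 to 1463 CPM in rdd control libraries. In Col-0 they took 525 to 534.8 CPM with YC4-R4, against 1714 to 1730 CPM in control soil. The sums therefore did not overlap between soils in either genotype. The median log2 ratio of YC4-R4 to control was -1.81 in rdd and -1.69 in Col-0. The lowest log2 ratios were -5.38 in rdd and -6.15 in Col-0. At least a 4-fold lower level was found for 36 genes in rdd, for 34 in Col-0 and for 18 in both. In edgeR's quasi-likelihood test all 97 were tested and all were called lower with YC4-R4 (Benjamini-Hochberg adjusted p under 0.05), in rdd beside 17.1% of all 20651 tested genes and in Col-0 beside 16.9%. Calls in either direction covered 32.2% of all tested genes in rdd and 29.8% in Col-0, and higher calls, of which the 97 had none, 15.1% and 12.9%. For each of the 97, the 3 YC4-R4 libraries lay below the 3 control libraries in both genotypes. This separation was not counted over all genes, so it has no background here. The selection used these values, so they describe the genes and test nothing.

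**Figure D1:**
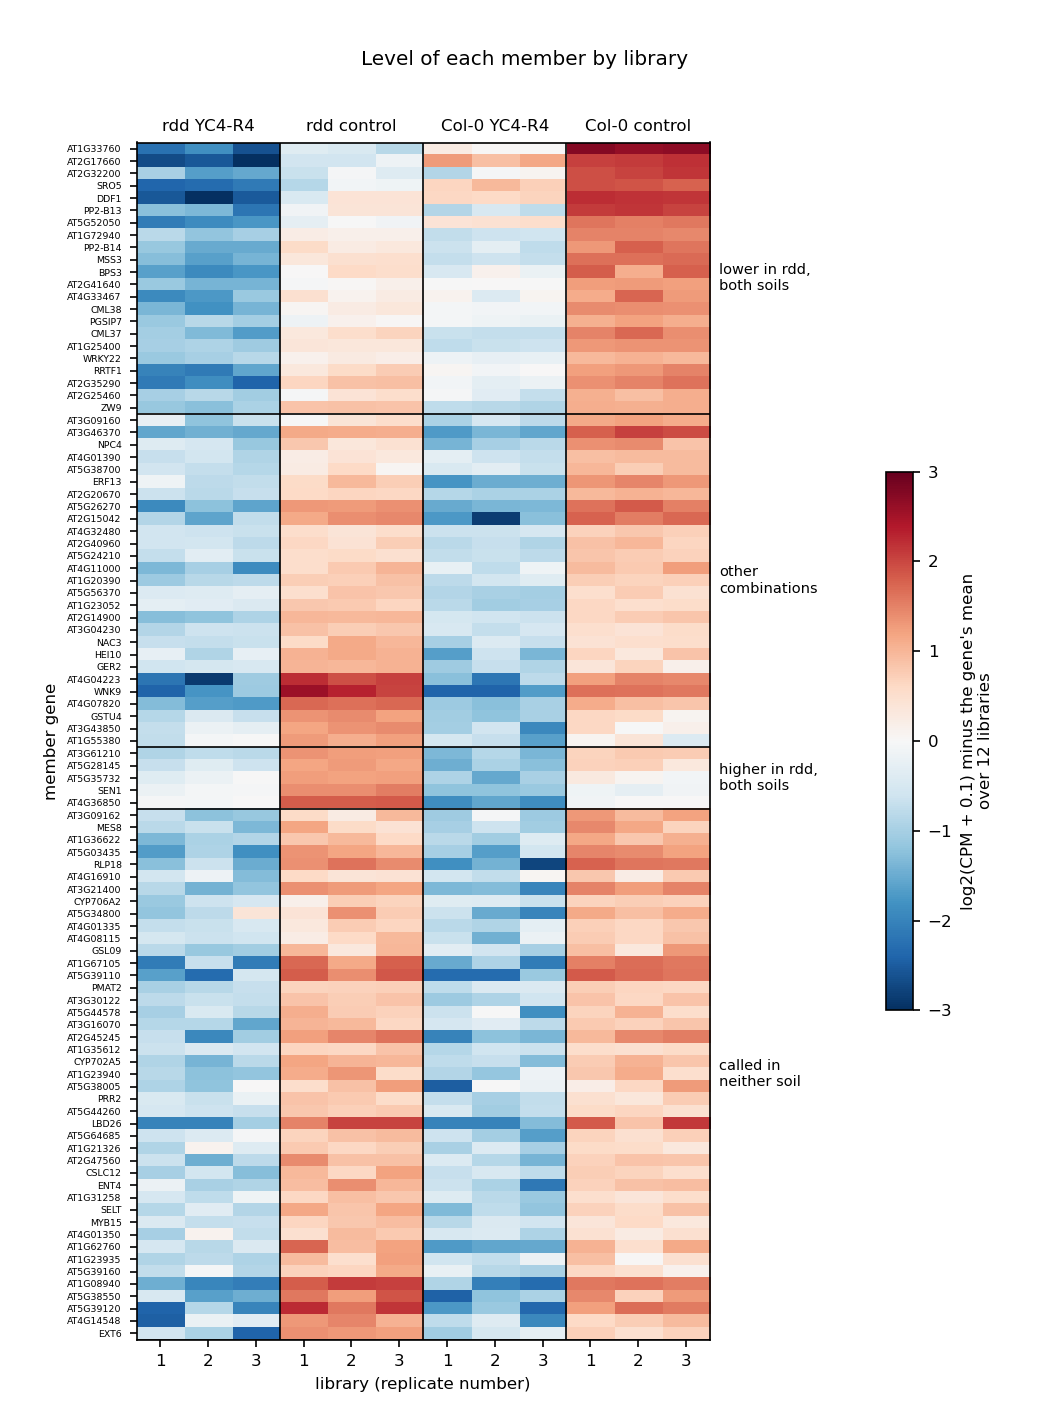
Heat map of the 97 genes (rows) in 12 libraries (columns), as log2(CPM + 0.1) minus the gene's mean over the libraries. Rows are grouped by the test of rdd against Col-0 in the 2 soils; 22 genes at the top were lower in rdd in both soils, 5 were higher in both and 43 were called in neither.

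The ratio limit ran through a continuous range. Just inside it were SEN1, AT2G17660 and PGSIP7, whose larger ratio over the 2 genotypes was 0.495, 0.499 and 0.4998. Just outside were AT5G22860 at 0.5003, GH9B13 at 0.503 and AT5G04020 at 0.504.

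The lowest ratios belonged to genes with few counts in YC4-R4 soil. WNK9 (AT5G28080, chromosome 5, 10089995 to 10092721, minus strand) encodes a protein kinase of the WNK (with no lysine) family. It was at 0, 0.0553 and 0.148 CPM in rdd YC4-R4 libraries, against 3.04, 2.53 and 2.04 CPM in rdd control libraries. In Col-0 it was at 0, 0 and 0.0644 CPM with YC4-R4, against 1.58, 1.53 and 1.48 CPM in control soil. A single count in the 3 Col-0 YC4-R4 libraries stood against 87 in the control libraries, which is 77.4-fold lower with an exact 95% interval of 13.5-fold to 3091-fold that covers counting error only.

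LBD26 (AT3G27940, chromosome 3, 10373251 to 10376480, plus strand) is a member of the LOB-domain family of plant transcription factors. Its level was 0, 0 and 0.0989 CPM in rdd YC4-R4 libraries, against 1.04, 1.53 and 1.55 CPM in rdd control libraries. In Col-0, the level was 0, 0 and 0.0644 CPM with YC4-R4, against 1.33, 0.633 and 1.65 CPM in control soil. With 2 against 72 counts in rdd the level was 38.2-fold lower (interval 10.2 to 322), and with 1 against 68 counts in Col-0 it was 60.5-fold lower (10.5 to 2424). The W-box, the sequence bound by WRKY factors (TTGACC or TTGACT on either strand), was not more frequent in the selected genes. Over 300 bases it was in 26.0% of their promoters, against 32.6% of all at the minimum level. The 250 bases before the annotated start of LBD26 hold 3 W-boxes, printed below from the TAIR10.1 genome with the matches in capitals.
LBD26 promoter, chr3:10373001-10373250, plus strand: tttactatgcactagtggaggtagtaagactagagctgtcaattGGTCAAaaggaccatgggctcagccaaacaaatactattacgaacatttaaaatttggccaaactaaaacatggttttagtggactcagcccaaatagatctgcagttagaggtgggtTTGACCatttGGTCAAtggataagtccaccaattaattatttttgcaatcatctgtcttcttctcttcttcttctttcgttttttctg

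The non-coding RNA gene AT1G67105 (chromosome 1, 25057479 to 25058264) had 0, 0.166 and 0 CPM in rdd YC4-R4 libraries, against 1.31, 0.844 and 1.38 CPM in rdd control libraries. Col-0 libraries had 0.0519, 0.127 and 0 CPM with YC4-R4, against 1.13, 1.27 and 1.2 CPM in control soil. Its level was 21.2-fold lower in rdd (3 against 60 counts, interval 6.92 to 106) and 20.2-fold lower in Col-0 (3 against 68 counts, interval 6.61 to 100). No library of either YC4-R4 group reached the lowest control library. A second non-coding RNA gene, AT4G04223, averaged 0.103 CPM in rdd YC4-R4 libraries and 2.98 CPM in rdd control libraries, and 0.198 CPM in Col-0 YC4-R4 against 1.82 CPM in Col-0 control libraries. In AT4G04223, 71.5% of the 50-base windows of its exons recur elsewhere in the genome, so its reads may be split with copies. AT1G08940, annotated in the phosphoglycerate mutase family, was at 0.428, 0.277 and 0.247 CPM in rdd YC4-R4 libraries, against 5.05, 6.12 and 5.97 CPM in rdd control libraries. In Col-0, AT1G08940 had 0.675, 0.254 and 0.193 CPM with YC4-R4, against 4.24, 4.43 and 4.10 CPM in control soil. AT1G08940, AT1G67105, LBD26, AT4G04223, WNK9, the lectin gene AT5G38550 and the germin-like genes AT5G39110 and AT5G39120 were the 8 genes at least 8-fold lower in both genotypes. Over all tested genes, 43.9% were called between genotypes in control soil (20.9% higher in rdd) and 28.7% in YC4-R4 soil. Of the 8 genes at least 8-fold lower in both, WNK9 and AT4G04223 were called between genotypes. Both were higher in rdd in control soil, by 0.62 (SE 0.25, adjusted p = 0.0439) and 0.61 (SE 0.24, adjusted p = 0.0399) on the log2 scale. Each of these calls was lost in DESeq2, at adjusted p = 0.151 for WNK9 and 0.119 for AT4G04223, and that of WNK9 also without the filter on low counts (0.0576) and with the replicate block (0.0513). Each was also lost when single libraries were left out: without one of the 3 Col-0 control libraries or of rdd control replicates 1 and 2 for WNK9, where the adjusted p lay between 0.0934 and 0.178, and without one of the 3 Col-0 control libraries or of rdd control replicates 1 and 3 for AT4G04223, where it lay between 0.0619 and 0.140.

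**Figure D2:**
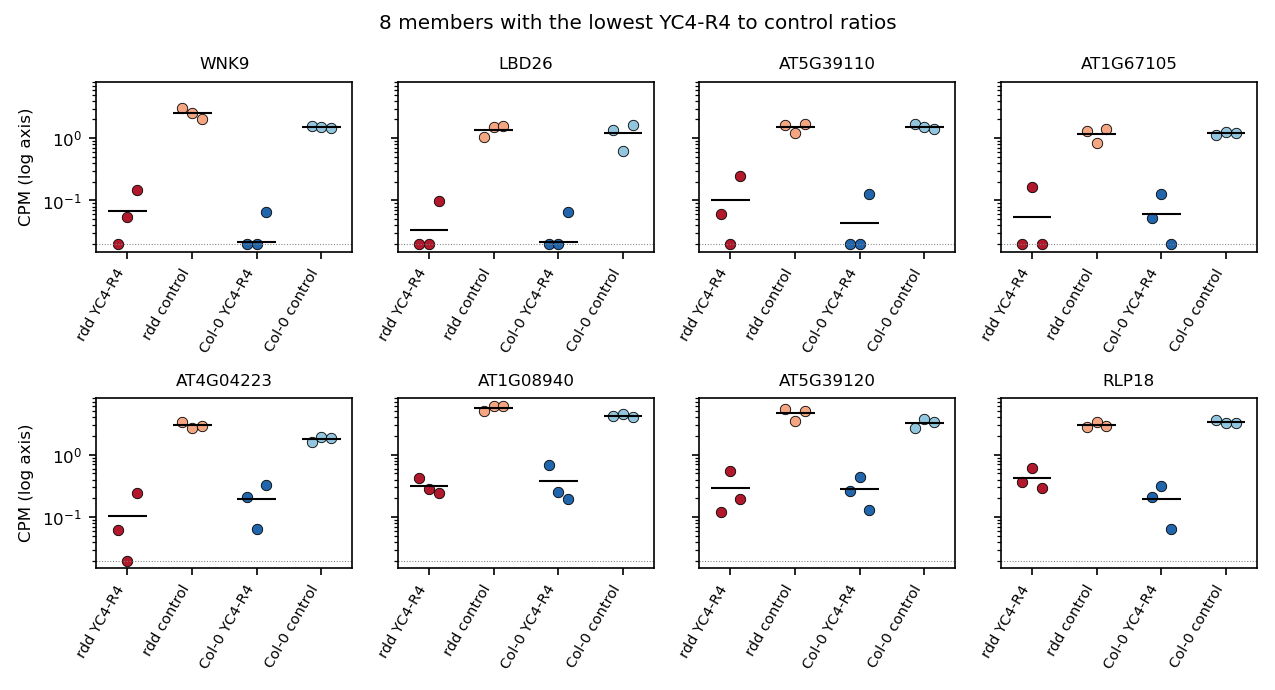
CPM on a log axis in each library (points) and group mean (lines) for the 8 genes with the lowest ratios of YC4-R4 to control. Points on the dotted line at 0.02 are libraries with 0 counts; YC4-R4 libraries lie below control libraries in every panel.

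Transcription factors of the AP2/ERF family supplied 4 of the 97 genes, of 61 family members at 1 CPM or more in both control groups. Over all genes at that level the selection took 97 of 18936. Shares below the 6.56% of AP2/ERF were found for leucine-rich repeat genes (3 of 236, 1.27%), cytochrome P450 genes (2 of 126, 1.59%) and RING/U-box genes (2 of 189, 1.06%). These shares were still above that over all genes at that level. Family counts were not tested. DDF1 (AT1G12610, chromosome 1, 4289883 to 4291017, minus strand) is related to the CBF/DREB factors and is known for changing gibberellin levels and salt tolerance when overproduced. It was at 0.734, 0.277 and 0.742 CPM in rdd YC4-R4 libraries, against 3.46, 6.33 and 6.36 CPM in rdd control libraries. In Col-0, DDF1 was at 7.38, 7.23 and 7.60 CPM with YC4-R4, against 22.6, 21.8 and 21.3 CPM in control soil. Its 4 groups did not overlap, and the rdd control libraries lay below the Col-0 YC4-R4 libraries. Between genotypes DDF1 was lower in rdd by a log2 difference of -3.66 in YC4-R4 soil (SE 0.24, adjusted p = 4.81e-15) and of -2.08 in control soil (SE 0.13, adjusted p = 4.74e-16). The DDF1 promoter holds 2 overlapping CGCG cores, the core sequence bound by the calmodulin-binding CAMTA factors, shown in capitals as 1 run of 6 bases.
DDF1 promoter, chr1:4291018-4291267, minus strand: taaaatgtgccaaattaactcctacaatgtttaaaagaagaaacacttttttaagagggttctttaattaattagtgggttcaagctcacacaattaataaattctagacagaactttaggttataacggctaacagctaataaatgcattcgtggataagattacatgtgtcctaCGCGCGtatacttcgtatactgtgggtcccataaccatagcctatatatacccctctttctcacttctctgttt

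AT1G33760 (chromosome 1, 12237547 to 12238710, plus strand), a DREB-type factor also called ERF022, had 0.612, 0.829 and 0.445 CPM in rdd YC4-R4 libraries, against 2.49, 2.32 and 1.77 CPM in rdd control libraries. For Col-0 the values were 3.90, 3.36 and 3.29 CPM with YC4-R4, against 22.6, 20.6 and 21.5 CPM in control soil. The rdd control libraries were again below the Col-0 YC4-R4 libraries. The log2 difference of rdd from Col-0 was -2.51 in YC4-R4 soil (SE 0.23) and -3.40 in control soil (SE 0.13, adjusted p = 6.56e-22), the lowest of the 97 in control soil.

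RRTF1 (AT4G34410, also called ERF109) is a redox-responsive factor induced by wounding and jasmonate. RRTF1 reached 2.63, 2.43 and 3.61 CPM in rdd YC4-R4 libraries, against 13.6, 16.3 and 18.6 CPM in rdd control libraries. In Col-0 it reached 11.4, 10.3 and 11.1 CPM with YC4-R4, against 25.8, 27.1 and 30.9 CPM in control soil. RRTF1 was lower in rdd by -1.92 in YC4-R4 soil (log2, SE 0.15) and by -0.87 in control soil (SE 0.09), and its YC4-R4 effect was more negative in rdd by a log2 difference of -1.06 (interaction, SE 0.18, adjusted p = 1.40e-05). RRTF1 overlaps 2 other annotated genes, and the strand setting of the counting was not given.

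ERF13 (AT2G44840), an ethylene-response-type factor, differed between genotypes in opposite directions in the 2 soils. It had 4.22, 2.65 and 2.77 CPM in rdd YC4-R4 libraries, against 6.98, 9.23 and 7.85 CPM in rdd control libraries. In Col-0, ERF13 had 1.3, 1.59 and 1.61 CPM with YC4-R4, against 11.7, 13.1 and 11.6 CPM in control soil. It was higher in rdd in YC4-R4 soil (log2 1.07, SE 0.22, adjusted p = 0.00019) and lower in rdd in control soil (-0.68, SE 0.12, adjusted p = 2.27e-05). The interaction was 1.75 (SE 0.25, adjusted p = 6.19e-07), so the effect of YC4-R4 was more negative in Col-0.

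WRKY22 and MYB15, named here after their values were seen, are factors of the response to microbial patterns and of cold and defence. WRKY22 had 11.3, 12.3 and 13.7 CPM in rdd YC4-R4 libraries, against 26.6, 29.6 and 27.9 CPM in rdd control libraries. In Col-0 it had 21.9, 20.7 and 21.0 CPM with YC4-R4, against 48.3, 50.3 and 48.0 CPM in control soil. WRKY22 was lower in rdd in both soils, by -0.78 with YC4-R4 and -0.89 in control soil (SE 0.08 and 0.06). MYB15 was called in neither soil between genotypes, with means of 3.94 CPM in rdd YC4-R4 against 10.5 CPM in rdd control libraries, and 3.92 CPM in Col-0 YC4-R4 against 8.18 CPM in Col-0 control libraries.

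**Figure D3:**
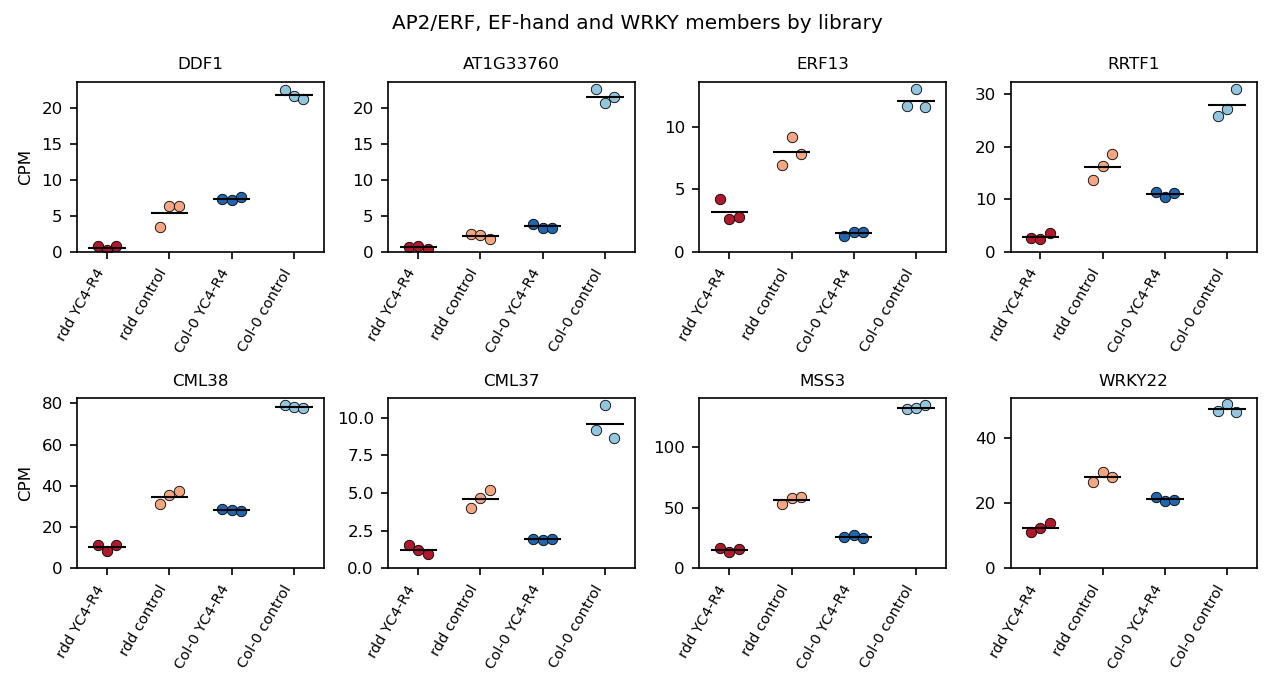
CPM in each library (points) with the group mean (lines) for 4 AP2/ERF, 3 EF-hand and 1 WRKY gene, on linear axes that start at 0. ERF13 is the gene here whose Col-0 YC4-R4 libraries lie lowest; in the others the rdd YC4-R4 libraries do.

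Calcium sensors gave 3 of the 97 genes, of 42 genes annotated with EF-hands at this level. MSS3 (AT2G43290, also known as CML5), a calmodulin-like protein, was at 17.1, 13.4 and 15.9 CPM in rdd YC4-R4 libraries, against 53.3, 58.0 and 59.4 CPM in rdd control libraries. In Col-0, MSS3 was at 25.6, 27.3 and 25.4 CPM with YC4-R4, against 132, 132 and 135 CPM in control soil. The 4 groups did not overlap. MSS3 was lower in rdd by -0.78 in YC4-R4 soil (log2, SE 0.07) and -1.31 in control soil (SE 0.05, adjusted p = 1.17e-21), and its interaction was 0.54 (SE 0.09, adjusted p = 1.46e-05).

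CML38 (AT1G76650), a calcium sensor known for its induction by wounding and low oxygen, was at 11.4, 8.35 and 11.2 CPM in rdd YC4-R4 libraries, against 31.1, 35.5 and 37.5 CPM in rdd control libraries. In Col-0 it was at 28.7, 28.2 and 27.9 CPM with YC4-R4, against 79.1, 78.1 and 77.7 CPM in control soil. CML38 was lower in rdd by a log2 difference of -1.47 in YC4-R4 soil (SE 0.09) and of -1.26 in control soil (SE 0.06). Its interaction of -0.22 (SE 0.11, adjusted p = 0.136) did not pass the threshold. CML37 (AT5G42380), its close relative, was at 1.53, 1.22 and 0.939 CPM in rdd YC4-R4 libraries, against 4.01, 4.70 and 5.2 CPM in rdd control libraries. In Col-0, CML37 was at 1.97, 1.90 and 1.93 CPM with YC4-R4, against 9.22, 10.8 and 8.65 CPM in control soil. CML37 was lower in rdd by -1.13 in control soil (adjusted p = 1.32e-08). In YC4-R4 soil the log2 difference was -0.70 (SE 0.24, adjusted p = 0.0251), a call lost when any of the 3 Col-0 YC4-R4 libraries or rdd YC4-R4 replicate 2 or 3 was left out, with adjusted p between 0.0502 and 0.149.

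Receptor-like and immune genes followed several patterns between genotypes. The pair RLP18 (AT2G15040) and AT2G15042 lies side by side on chromosome 2, between 6507402 and 6512641, and both belong to the leucine-rich repeat proteins, many of which are receptors, although RLP18 is annotated as a transcribed pseudogene. RLP18 had 0.367, 0.608 and 0.297 CPM in rdd YC4-R4 libraries, against 2.77, 3.33 and 2.88 CPM in rdd control libraries. Col-0 libraries had 0.208, 0.317 and 0.0644 CPM with YC4-R4, against 3.65, 3.27 and 3.24 CPM in control soil. RLP18 was called in no genotype comparison, and its interaction of 1.31 (SE 0.56, adjusted p = 0.0749) did not pass the threshold. AT2G15042 had 1.77, 1.05 and 1.98 CPM in rdd YC4-R4 libraries, against 7.47, 8.92 and 9.23 CPM in rdd control libraries. In Col-0, AT2G15042 had 0.935, 0.381 and 1.35 CPM with YC4-R4, against 11.7, 9.92 and 11.3 CPM in control soil. Its YC4-R4 effect was smaller in rdd (interaction 1.27, SE 0.33, adjusted p = 0.00285). The third gene, the leucine-rich repeat kinase AT3G46370, averaged 1.21 CPM in rdd YC4-R4 against 7.97 CPM in rdd control libraries, and 1.18 CPM in Col-0 YC4-R4 against 14.2 CPM in Col-0 control libraries. AT3G46370 was lower in rdd by -0.92 in control soil (SE 0.11, adjusted p = 5.75e-09), and in YC4-R4 soil its log2 difference was 0.03 (SE 0.25).

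AT2G17660 (chromosome 2, 7673145 to 7673712, plus strand) encodes a protein of the family of RIN4, a regulator of immunity at the plasma membrane. It had 0.245, 0.277 and 0.148 CPM in rdd YC4-R4 libraries, against 1.38, 1.37 and 1.88 CPM in rdd control libraries. For Col-0 the values were 5.30, 4.06 and 4.83 CPM with YC4-R4, against 9.02, 9.39 and 10 CPM in control soil. AT2G17660 overlaps the annotated gene AT2G17650. Its difference between genotypes was the largest of the 97 in YC4-R4 soil (log2 -4.41, SE 0.28, adjusted p = 2.47e-15), and it was -2.69 in control soil (SE 0.17). AT1G72940, with a TIR domain as in plant immune receptors, had 14.7, 11.2 and 12.8 CPM in rdd YC4-R4 libraries, against 29.8, 28.6 and 28.6 CPM in rdd control libraries. In Col-0, AT1G72940 had 15.4, 16.8 and 16.8 CPM with YC4-R4, against 72.6, 71.8 and 70.4 CPM in control soil. The 2 YC4-R4 groups lay close together, with a log2 difference of rdd from Col-0 of -0.36 (SE 0.08, adjusted p = 0.000937), and the control groups lay apart, at -1.40 (SE 0.06, adjusted p = 1.05e-20).

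The phloem protein 2 genes PP2-B13 (AT1G56240) and PP2-B14 (AT1G56250) encode F-box lectin-type proteins and stand 1 after the other on the minus strand of chromosome 1, between 21056099 and 21063047. PP2-B13 had 1.77, 1.66 and 0.890 CPM in rdd YC4-R4 libraries, against 4.08, 5.75 and 5.80 CPM in rdd control libraries. In Col-0 it had 2.34, 3.11 and 2.58 CPM with YC4-R4, against 19.1, 19.9 and 18.2 CPM in control soil. PP2-B13 was lower in rdd in control soil by -1.94 (log2, SE 0.13, adjusted p = 1.85e-15) and in YC4-R4 soil by -0.93 (SE 0.23, adjusted p = 0.00184). PP2-B14 had 0.673, 0.498 and 0.494 CPM in rdd YC4-R4 libraries, against 2.42, 1.90 and 1.99 CPM in rdd control libraries. In Col-0, PP2-B14 had 0.987, 1.27 and 0.902 CPM with YC4-R4, against 4.09, 5.75 and 5.06 CPM in control soil. It was lower in rdd in control soil by -1.34 (SE 0.19), while the call in YC4-R4 soil (-0.94, SE 0.34, adjusted p = 0.0313) was lost in DESeq2 (adjusted p = 0.0536) and without Col-0 YC4-R4 replicate 1 or 2 or rdd YC4-R4 replicate 2 or 3 (0.0545 to 0.131). The 250 bases before their starts, shown because both neighbours were selected, share a run of 48 identical bases that holds a W-box, 53 to 100 bases before the start of PP2-B13 and 2 to 49 bases before that of PP2-B14. Capitals mark W-boxes and CGCG cores, and the core in PP2-B14 is part of CGCGTT, the rapid stress response element.
PP2-B13 promoter, chr1:21057578-21057827, minus strand: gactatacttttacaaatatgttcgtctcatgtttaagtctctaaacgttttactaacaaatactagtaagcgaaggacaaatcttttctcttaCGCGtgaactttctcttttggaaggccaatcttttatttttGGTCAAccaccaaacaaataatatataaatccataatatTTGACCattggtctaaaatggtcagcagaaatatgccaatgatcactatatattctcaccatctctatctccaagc
PP2-B14 promoter, chr1:21063048-21063297, minus strand: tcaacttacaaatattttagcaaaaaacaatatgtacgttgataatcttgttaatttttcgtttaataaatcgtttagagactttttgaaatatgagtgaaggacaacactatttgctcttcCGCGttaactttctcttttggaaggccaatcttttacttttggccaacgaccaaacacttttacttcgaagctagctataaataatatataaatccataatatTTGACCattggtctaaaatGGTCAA

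Germin-like genes supplied 4 of the 97, of 30 family members at this level, and all 4 lie on the minus strand of chromosome 5 between 15657697 and 15693735. Germin-like proteins are secreted cupins, some of which produce hydrogen peroxide. AT5G39110 had 0.0612, 0 and 0.247 CPM in rdd YC4-R4 libraries, against 1.66, 1.21 and 1.71 CPM in rdd control libraries. Col-0 libraries had 0, 0 and 0.129 CPM with YC4-R4, against 1.68, 1.53 and 1.42 CPM in control soil. In Col-0 this was 2 against 88 counts, 39.1-fold lower (interval 10.5 to 328). AT5G39120 had 0.122, 0.553 and 0.198 CPM in rdd YC4-R4 libraries, against 5.46, 3.43 and 5.09 CPM in rdd control libraries. In Col-0, AT5G39120 had 0.260, 0.444 and 0.129 CPM with YC4-R4, against 2.66, 3.69 and 3.36 CPM in control soil. The other two, AT5G39160 and GER2, were lower by less. GER2 had 2.20, 2.32 and 2.37 CPM in rdd YC4-R4 libraries, against 6.98, 6.81 and 7.08 CPM in rdd control libraries. In Col-0, GER2 had 1.56, 2.03 and 1.74 CPM with YC4-R4, against 4.39, 5.43 and 3.75 CPM in control soil. AT5G39110, AT5G39120 and AT5G39160 were called in neither genotype comparison, and GER2 was higher in rdd in control soil (log2 0.52, SE 0.14, adjusted p = 0.00264).

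The 4 germin-like genes share sequence with copies. The share of 50-base exon windows found elsewhere in the genome was 20.3% for AT5G39110, 47.3% for AT5G39120, 84.2% for AT5G39160 and 89.1% for GER2, so the split of reads among them is uncertain. The 7 other genes annotated in the interval were all under 1 CPM, among them AT5G39130, AT5G39150 and AT5G39180, and none of the 7 reached the level needed for selection. At these low levels AT5G39130, AT5G39150 and AT5G39180 also had lower means with YC4-R4 in both genotypes, and the remaining genes had no counts. The promoters of the pair with the lowest ratios are printed with their CGCG cores in capitals, and their longest identical run is 26 bases, 111 to 136 bases before both starts. The core in AT5G39120, as in PP2-B14, is part of CGCGTT.
AT5G39110 promoter, chr5:15658633-15658882, minus strand: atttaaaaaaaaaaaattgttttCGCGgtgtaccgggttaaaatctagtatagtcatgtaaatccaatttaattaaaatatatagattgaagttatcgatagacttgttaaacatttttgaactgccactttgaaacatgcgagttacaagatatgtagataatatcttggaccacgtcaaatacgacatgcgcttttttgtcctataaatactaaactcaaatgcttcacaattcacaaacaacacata
AT5G39120 promoter, chr5:15663528-15663777, minus strand: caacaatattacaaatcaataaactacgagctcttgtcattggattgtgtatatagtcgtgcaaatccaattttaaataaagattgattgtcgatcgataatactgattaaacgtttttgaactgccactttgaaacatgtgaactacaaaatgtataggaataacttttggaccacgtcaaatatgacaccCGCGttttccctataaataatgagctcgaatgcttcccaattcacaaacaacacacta

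Genes of metabolism, transport and protein modification included some of the largest differences between genotypes. SRO5 (AT5G62520), of the RCD1-like family and known in salt and oxidative stress, had 1.10, 1.16 and 1.33 CPM in rdd YC4-R4 libraries, against 3.39, 5.86 and 5.64 CPM in rdd control libraries. For Col-0 the values were 9.66, 12.2 and 10.3 CPM with YC4-R4, against 24.0, 23.1 and 21.3 CPM in control soil. SRO5 was lower in rdd by -3.16 in YC4-R4 soil (log2, SE 0.18, adjusted p = 1.33e-16) and by -2.26 in control soil (SE 0.12, adjusted p = 1.01e-17). SRO5 overlaps AT5G62530 in the annotation. The MATE-family transporter gene AT5G52050 had 2.57, 2.99 and 3.26 CPM in rdd YC4-R4 libraries, against 9.33, 11.1 and 10.4 CPM in rdd control libraries. In Col-0, AT5G52050 had 15, 15.5 and 16.3 CPM with YC4-R4, against 34.7, 32.4 and 34.0 CPM in control soil. As with DDF1 and SRO5, all its rdd control libraries were below the Col-0 YC4-R4 libraries, and the log2 differences of rdd from Col-0 were -2.41 in YC4-R4 soil (SE 0.11) and -1.79 in control soil (SE 0.08). AT2G41640, a glycosyltransferase of family 61, and PGSIP7, a sugar transferase, were lower in rdd in both soils, by -1.32 and -0.88 with YC4-R4 and by -1.29 and -1.2 in control soil. The cytochrome P450 genes CYP706A2 and CYP702A5 were called in neither soil between genotypes.

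SEN1 and AT4G36850 were higher in rdd. SEN1 (AT4G35770, also DIN1), a gene induced by darkness, low sugar and senescence, had 58.2, 62.4 and 64.0 CPM in rdd YC4-R4 libraries, against 171, 172 and 188 CPM in rdd control libraries. In Col-0 it had 28.1, 28.1 and 30.1 CPM with YC4-R4, against 59.7, 54.5 and 60.2 CPM in control soil. The rdd YC4-R4 libraries lay among and above the Col-0 control libraries, and the other groups did not overlap. SEN1 was higher in rdd by 1.08 with YC4-R4 (log2, SE 0.06) and by 1.52 in control soil (SE 0.05, adjusted p = 2.40e-24). AT4G36850, a PQ-loop membrane protein gene, had 20.7, 20.4 and 21.3 CPM in rdd YC4-R4 libraries, against 75.3, 74.9 and 75.9 CPM in rdd control libraries. In Col-0, AT4G36850 had 5.77, 7.17 and 5.73 CPM with YC4-R4, against 19.9, 21.4 and 21.4 CPM in control soil. Its difference was nearly equal in the 2 soils, at 1.73 with YC4-R4 and 1.76 in control soil, with an interaction of -0.03 (SE 0.11).

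AT2G20670 had the most control counts of the 97, with no correction for length. It is a gene of the DUF506 family of unknown function. Its level was 98.8, 88.4 and 94.7 CPM in rdd YC4-R4 libraries, against 232, 241 and 237 CPM in rdd control libraries. In Col-0, AT2G20670 had 85.3, 79.8 and 79.6 CPM with YC4-R4, against 304, 316 and 308 CPM in control soil. It was higher in rdd with YC4-R4 (log2 0.18, SE 0.05, adjusted p = 0.00199) and lower in rdd in control soil (-0.48, SE 0.04, adjusted p = 1.23e-12). AT4G32480, of the same family, was lower in rdd in control soil by -0.35 (SE 0.06). ZW9, a TRAF-like gene, averaged 24.1 CPM in rdd YC4-R4 against 94.9 CPM in rdd control libraries, and 29.3 CPM in Col-0 YC4-R4 against 110 CPM in Col-0 control libraries. Its differences between genotypes were small and called in both soils, at -0.30 with YC4-R4 and -0.31 in control soil, and its interaction was 0.01 (SE 0.08).

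The selection set no condition on the difference between genotypes, although it used the same libraries. In YC4-R4 soil 36 of the 97 genes differed between rdd and Col-0, or 37.1%, against 28.7% of all tested genes. Of the 36, 11 were higher in rdd (11.3%, against 14.3% of all tested genes) and 25 were lower (25.8%, against 14.4%). In control soil 48 differed, or 49.5%, against 43.9% of all tested genes, with 14 higher in rdd (14.4%, against 20.9%) and 34 lower (35.1%, against 23.0%). The median log2 difference of rdd from Col-0 over the 97 was -0.08 in YC4-R4 soil and -0.12 in control soil, beside 0.01 over all tested genes in each. Leaving out Col-0 YC4-R4 replicate 1 reduced the genes higher in rdd in YC4-R4 soil to 6, and leaving out replicate 3 reduced them to 7. Over all tested genes these higher calls then numbered 2375 of 20836 and 2464 of 20837, against 2956 of 20651 with all libraries.

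Taking both soils together, 22 of the 97 were lower in rdd in both (22.7%, against 7.24% of all tested genes). They were DDF1, AT1G33760, RRTF1, WRKY22, CML37, CML38, MSS3, PP2-B13, PP2-B14, AT1G72940, AT2G17660, SRO5, AT5G52050, AT2G41640, PGSIP7, ZW9, BPS3, AT1G25400, AT2G25460, AT2G32200, AT2G35290 and AT4G33467. Thus all 3 EF-hand genes, 3 of the 4 AP2/ERF genes and both phloem protein 2 genes fell in this class, and none of the 4 germin-like genes did. The 5 genes higher in rdd in both soils were SEN1, AT4G36850, the methyltransferase gene AT3G61210, AT5G28145 and AT5G35732. ERF13, AT2G20670 and AT2G15042 were higher in rdd with YC4-R4 and lower in control soil, but the first of these calls on AT2G15042 (log2 0.83, adjusted p = 0.0364) was lost without Col-0 YC4-R4 replicate 1 or 2 or rdd YC4-R4 replicate 1 or 3, with adjusted p between 0.0774 and 0.249. The 43 genes called in neither soil (44.3%, against 45.6% of all tested genes) included LBD26, AT1G08940, AT1G67105, RLP18, MYB15, AT5G38550 and 3 germin-like genes. The median control level of the 97 was 5.74 CPM, against 18.8 CPM over all genes at the minimum level. The part of level in these calls was not tested.

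**Figure D4:**
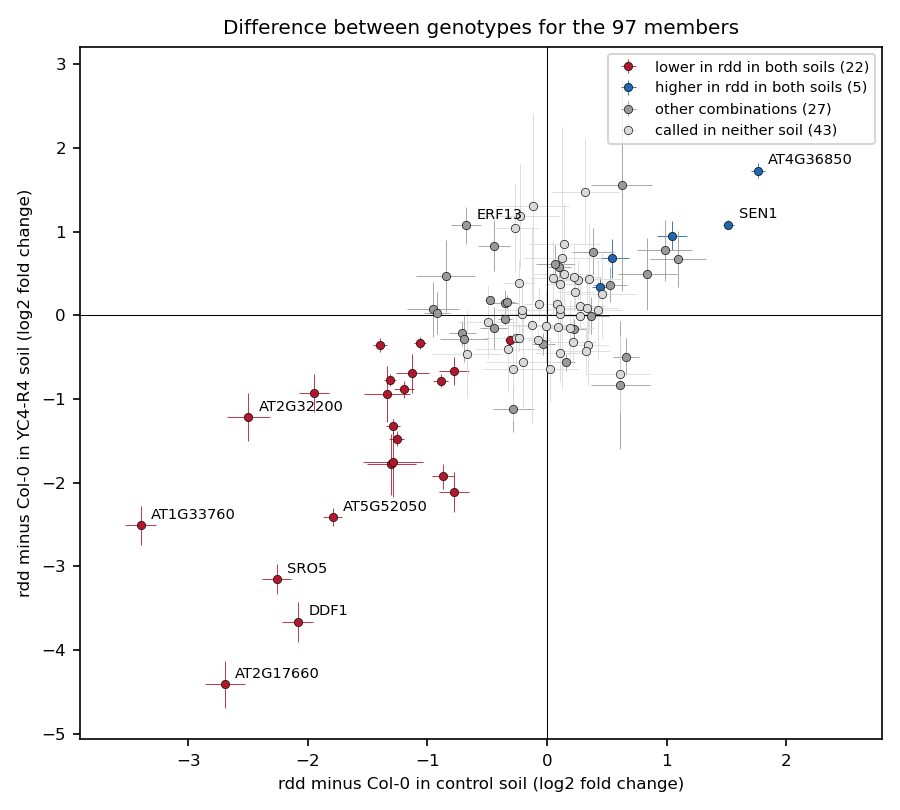
Log2 fold change of rdd against Col-0 in control soil (x axis) and in YC4-R4 soil (y axis) for each of the 97 genes, with bars of 1 standard error and colours by edgeR's calls in the 2 soils. The 22 genes lower in rdd in both soils lie at the lower left, with AT2G17660 at -4.41 on the y axis and AT1G33760 at -3.40 on the x axis, and AT4G36850 and SEN1 lie at the upper right.

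The YC4-R4 effect differed between genotypes for 27 of the 97 genes (27.8%, against 30.6% of all tested genes). For 17 the effect was less negative in rdd (17.5%, against 16.2%) and for 10 it was more negative in rdd (10.3%, against 14.4%). The selection required a lower level in both genotypes, which left out genes with opposite YC4-R4 effects. The interaction is the difference of these 2 effects, so its shares are shaped by the selection and are no like-for-like comparison with all genes. Among the 17 were ERF13, AT2G20670, AT1G72940, AT1G25400, MSS3 and PP2-B13, and among the 10 were DDF1, AT2G17660, RRTF1, SRO5, AT5G52050 and SEN1. AT1G33760 was also among the 17 (0.88, SE 0.32, adjusted p = 0.0335), but lost its call without replicate 2 or 3 of Col-0 YC4-R4, replicate 3 of rdd control, or replicate 1 or 2 of rdd YC4-R4 (adjusted p 0.0527 to 0.244). The interactions of AT4G01390 (0.49, adjusted p = 0.0402) and AT3G09160 (1.02, adjusted p = 0.0497) were lost in DESeq2, at adjusted p = 0.0908 and 0.107, and that of AT3G09160 also with other size factors, without the filter on low counts and with the replicate block (0.0506 to 0.0602). They were also lost without any of several single libraries, with adjusted p up to 0.130 for AT4G01390, without Col-0 control replicate 2 or 3, replicate 2 or 3 of Col-0 YC4-R4, replicate 1 or 3 of rdd control, or replicate 1 or 2 of rdd YC4-R4, and up to 0.211 for AT3G09160, without any library other than replicate 2 of either YC4-R4 group or replicate 3 of rdd control.

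Some properties that the selection did not use were more frequent than among all 18936 genes at the same minimum level, 18820 of which match a reference entry, as do 96 of the 97. Pseudogenes made up 9 of the 96 (9.38%, against 0.909%) and non-coding RNA genes 7 (7.29%, against 1.37%). Transcripts of 1 exon made up 37.5%, against 15.7%, and the median transcript length was 1294 bases, against 1765. The 97 were also lower in level, with a median control CPM of 5.74 against 18.8. Among genes under 10 CPM in control soil, pseudogenes were 11.3% of the selected genes against 1.92% of all, non-coding RNA genes 9.68% against 3.43%, and 1-exon transcripts 33.9% against 25%. The selected genes were lower in level here too, with a median control CPM of 2.75 against 4.68, so this does not remove the difference in level. Windows of 500 kb in which over 50% of annotated genes are pseudogenes held 8 of the 96 (8.33%, against 1.25%). For 16 of the 96, over 10% of 50-base exon windows recur elsewhere in the genome, and for 61 none do, so the split of reads between copies is uncertain for those 16, which include AT1G72940, AT2G41640, RLP18, CYP706A2, AT4G04223 and the germin-like genes. Another annotated gene overlaps 21 of the 97, among them AT2G41640, AT2G17660, RRTF1, SRO5, PP2-B13, RLP18, AT3G09160 and AT4G01390. Recurring windows and overlaps were not counted over all genes, so neither count has a background. HEI10, a RING-type protein known from meiotic crossovers, overlaps AT1G53480 (MRD1), 1 of the exceptions to the selection, and its reads may include those of MRD1.

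Of the 97 genes, 14 lay within 20000 bases of another, in 5 groups on 5 chromosomes. How many would do so among other genes was not computed. Besides the PP2-B13, RLP18 and germin-like groups, AT3G09160 and AT3G09162 adjoin on chromosome 3, and AT4G01335, AT4G01350, BPS3 and AT4G01390 lie between 553332 and 571595 on chromosome 4. Genes between the members did not all share the pattern. MPK4, a MAP kinase gene within the chromosome 4 group, averaged 52.4 CPM in rdd YC4-R4 against 54.5 CPM in rdd control libraries, and 50.9 CPM in Col-0 YC4-R4 against 45 CPM in Col-0 control libraries. AT4G01380, beside MPK4 and not selected, had lower means with YC4-R4. They were 0.175 against 0.676 CPM in rdd and 0.429 against 1.05 CPM in Col-0. BPS3, in the same interval, averaged 0.440 CPM in rdd YC4-R4 against 2.30 CPM in rdd control libraries, and 1.53 CPM in Col-0 YC4-R4 against 5.42 CPM in Col-0 control libraries.

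Promoter words were counted in the 300 bases from 250 before to 50 after the annotated start, on both strands, for 96 of the 97 genes and for all 18819 genes at the minimum level with a promoter. The CGCG core occurred in 25% of the 96, against 14.1% of all, and CGCGTT, which contains it, in 5.21% against 3.78%. The evening element, AAATATCT, a word bound by clock factors, occurred in 10.4% against 5.95%. The W-box (TTGACC or TTGACT) occurred in 26.0% against 32.6%, and the G-box (CACGTG) in 5.21% against 8.69%. The GCC box (GCCGCC, bound by ERF factors) was found in 3.13% against 2.66% and the dehydration element (ACCGAC or GCCGAC, bound by DREB factors) in 9.38% against 9.74%. These are matches of letters, and no binding was measured.

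**Figure D5:**
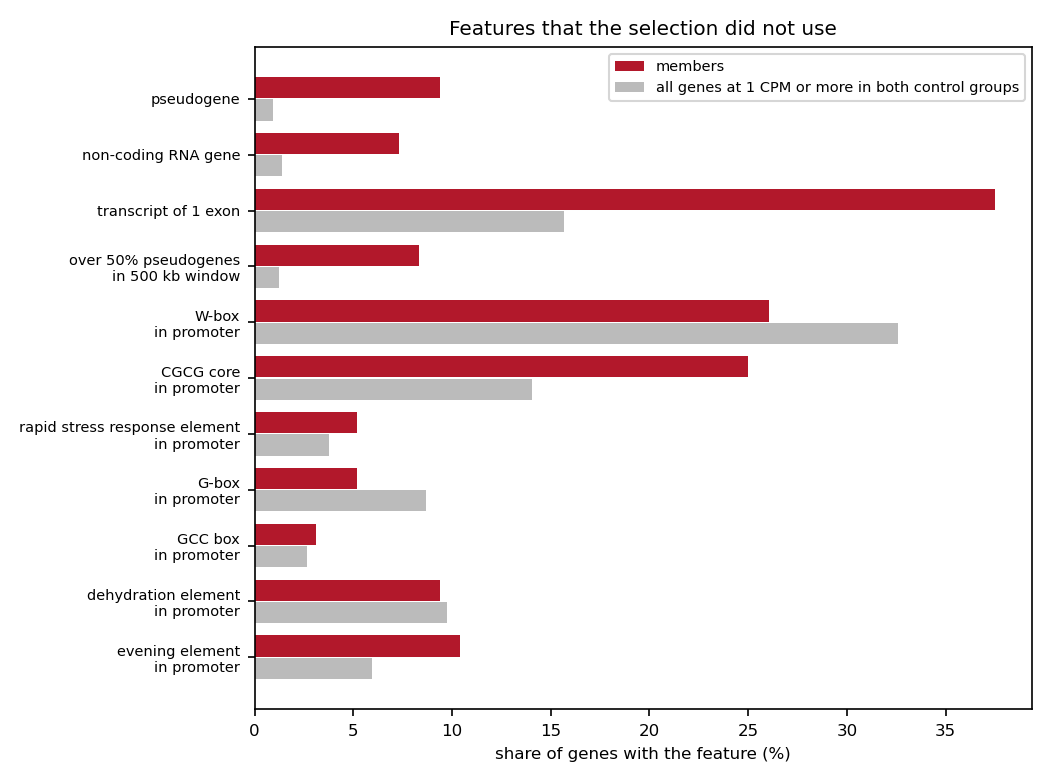
Share of genes with each annotated property or promoter word, in percent, for the selected genes (red) and for all genes at 1 CPM or more in both control groups (grey), counted over genes with a reference entry. Pseudogenes are at 9.38% against 0.909% and the CGCG core at 25% against 14.1%, while the W-box is at 26.0% against 32.6%.

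Gene lists of the pathways around the 97 were compared with the background of each comparison, which is the median log2 change of all tested genes, at 0.004 for YC4-R4 in rdd and 0.002 in Col-0, and the share of all tested genes called, at 17.1% lower and 15.1% higher in rdd and 16.9% lower and 12.9% higher in Col-0. The counts and medians of a list include its selected genes and exceptions. Those that met the ratios are lower by the selection and say nothing further about the list. Of 20 stress-related ERF and DREB genes, 15 had lower and 1 had higher levels with YC4-R4 in rdd (median -0.72), and 18 were lower and 2 higher in Col-0 (median -1.67); 3 of the 20 are among the 97. Of 12 stress zinc-finger genes, none of them selected, 5 were lower and 0 higher in rdd (median -0.37) and 11 lower and 0 higher in Col-0 (median -1.63). The interaction was called less negative in rdd for 7 of these zinc-finger genes and more negative for 1, where all tested genes had 16.2% above 0 and 14.4% below. Of 23 WRKY genes, 12 were lower and 3 higher in rdd and 10 lower and 3 higher in Col-0; WRKY22 among them is selected, and WRKY40 met the ratios and is an exception to the selection. Of 11 calmodulin-related genes, 7 were lower and 4 higher in rdd and 6 lower and 1 higher in Col-0, and CML37 and CML38 among them are selected. Of 23 genes of immune receptors and early immune signalling, 17 were lower and 0 higher in rdd and 14 lower and 2 higher in Col-0. Of 11 genes raised by carbon starvation or tied to sugar status, which include SEN1, 11 were lower in rdd (median -0.84), against 8 lower and 2 higher in Col-0 (median -0.39).

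Hormone and growth lists, none of which holds any of the 97, did not share 1 direction, and their counts stand beside the same shares of all tested genes. The ethylene list holds ACS11, which met the ratios and is an exception to the selection. The 16 jasmonate genes had 12 lower and 4 higher calls for YC4-R4 in rdd, against 4 lower and 10 higher in Col-0. Their interaction was called for 14, 11 of them more negative in rdd. Over all tested genes the interaction was called for 30.6%, with 14.4% more negative in rdd. The 16 salicylic acid genes had 6 lower and 7 higher calls in rdd and 4 lower and 2 higher in Col-0. Of 12 ethylene genes, 6 were lower and 1 higher in rdd and 4 lower and 5 higher in Col-0. Of 15 abscisic acid and cold genes, 5 were lower and 5 higher in rdd and 3 lower and 8 higher in Col-0. Of 11 auxin genes, 2 were lower and 1 higher in rdd and 4 lower and 1 higher in Col-0, and in rdd these counts are near the shares of all tested genes. Of 12 clock genes, 5 were lower and 3 higher in rdd and 9 lower and 0 higher in Col-0. Of 11 xyloglucan and expansin genes, 7 were lower and 3 higher in rdd and 2 lower and 4 higher in Col-0.

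Between genotypes, 23.0% of all tested genes were lower in rdd and 20.9% higher in control soil, and 14.4% were lower and 14.3% higher in YC4-R4 soil. In control soil 16 of the 20 ERF and DREB genes were lower in rdd and 2 higher (median log2 -1.37), and DDF1, AT1G33760 and RRTF1 among the 16 belong to the 22 genes lower in both soils. Of the calmodulin-related genes 8 of 11 were lower and 3 higher (median -1.19), with CML37 and CML38 among the 8 and also among the 22. Of the 23 WRKY genes, with WRKY22 of the 22, 11 were lower, 5 higher and 7 not called (median -0.30). The zinc-finger list, which holds none of the 97, had 10 of 12 genes lower and 2 higher (median -1.2). In YC4-R4 soil the ERF and DREB list had 10 lower and 5 higher (median -0.29), the calmodulin-related list 6 lower and 2 higher (median -0.23), the WRKY list 6 lower and 3 higher (median -0.01) and the zinc-finger list 2 lower and 5 higher (median 0.28). The carbon starvation list, with SEN1, had 7 genes higher and 3 lower in rdd of 11 in YC4-R4 soil, and 8 higher and 2 lower in control soil.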

How the data were processed

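Per the labels' protocols, total RNA (RNeasy kit) went into a NEBNext directional library, 1 µg each. The authors deposited raw counts of reads for each gene. The submitters' processing notes name the build TAIR10 and the tools HTSeq 0.9.1, HISAT2 2.1.0 and Trimmomatic 0.36. Strand setting and annotation release were not given in the sources used here. Symbols, coordinates, promoters and exon sequence came from the TAIR10.1 RefSeq annotation and genome, which 32835 of 33602 table genes matched.

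CPM is count over column sum. Tests used edgeR 4.0.16 in R 4.3.3 (filterByExpr, 20651 genes; TMM; quasi-likelihood with 1 mean per group over 12 libraries, 8 residual degrees of freedom) with Benjamini-Hochberg adjustment over all tested genes and a threshold of 0.05. The interaction subtracts the Col-0 effect of YC4-R4 from its effect in rdd. Replicates are biological per the series design; no more is stated on their source, so p-values measure the spread between libraries. Alternatives were DESeq2 1.42.0, RLE size factors, no low-count filter, a replicate block and each library left out. Depth limits genes near 1 CPM, and intervals cover counting error only.

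The selected genes, the gene lists and the tests were chosen with earlier results of these data known. Named were the 8 lowest ratios, the 8 highest control levels, the 6 smallest adjusted p in each genotype comparison and the interaction, up to 4 members of each list or family holding at least 2, the genes at the threshold and neighbouring members, 44 selected genes in all; others were named after their values were seen. One entry of the calmodulin list was dropped because its identifier belongs to another gene in the reference.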

Additional observations from a re-analysis of the deposited data

Results flagged for a closer look

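For 18 of the named genes the YC4-R4 effect differed between rdd and Col-0 in the interaction test (edgeR, adjusted p under 0.05), which is what brought them here. Each value is the log2 effect in rdd after subtraction of the Col-0 effect. A positive value means that the level with YC4-R4 was lowered less in rdd, and it was found for ERF13 (1.75), AT2G15042 (1.27), AT1G72940 (1.04), PP2-B13 (1.02), AT3G09160 (1.02), AT3G46370 (0.95), AT1G33760 (0.88), AT1G25400 (0.74), AT2G20670 (0.66), MSS3 (0.54), AT4G01390 (0.49) and AT4G32480 (0.31). A negative value, with a larger lowering in rdd, was found for AT2G17660 (-1.72), DDF1 (-1.58), RRTF1 (-1.06), SRO5 (-0.90), AT5G52050 (-0.62) and SEN1 (-0.43). The calls on AT1G33760, AT4G01390 and AT3G09160 were lost under some alternatives, with the values given above.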

How the results depend on the processing

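The selection gave 43 genes with a minimum of 5 CPM in both control groups, 50 when every YC4-R4 library had to be at most 0.5 times every control library, 108 with TMM-normalized CPM and 92 to 101 with 1 library left out. The numbers differing between rdd and Col-0 ran from 29 to 36 in YC4-R4 soil (6 to 11 higher, 22 to 25 lower), from 44 to 51 in control soil (11 to 17 higher, 33 to 35 lower) and from 21 to 26 for the interaction (12 to 16 and 9 to 11) with 1 library left out. Over all genes, of which 20814 to 20860 were then tested, these calls ran from 4908 to 5967, 8052 to 9515 and 5649 to 6357. The 2 YC4-R4 contrasts kept 96 or 97 of 97 calls. DESeq2 called 31 (8 higher, 23 lower) in YC4-R4 soil, 44 (10 and 34) in control soil and 21 (12 and 9) for the interaction. Over all genes DESeq2 called 4771 of 20801, 7702 of 22377 and 5071 of 21326, where the main test called 5935, 9062 and 6319 of 20651. With the replicate block the counts among the 97 were 35, 46 and 26, beside 5821, 8976 and 6197 of all 20651 genes. Libraries with the same replicate number did not deviate together (18 pairs, r from -0.043 to 0.022), so the numbers did not pair them. Of 71 called results on named genes, 62 kept their call and direction under all 16 alternatives, 9 lost the call under at least 1, and none reversed. The cause of these changes was not tested. WNK9, LBD26, AT1G67105 and AT5G39110 rest on 1 to 6 counts per YC4-R4 group, which limits the precision of their folds and of their differences between genotypes.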
